A study of Mus musculus with 50 samples.

Results

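Transcripts of the unfolded protein response and of the ATF4 stress program were measured in 50 mammary gland tumors of mice. The 10 genes described here were picked by name, namely Atf4, Ddit3, Xbp1, Hspa5, Hsp90b1, Trib3, Asns, Chac1, Dnajb9 and Herpud1. Each matched 1 gene of the 37701 in the expression table, and 10 of the 10 reached a mean of 0.5 RPKM over the tumors, as did 16733 genes in all, which were the genes tested. RPKM is the number of reads of a gene per kilobase of its length, divided by the number of reads in the library, here from RNA sequencing of Poly-A RNA on the Ion Proton.

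The tumors grew in female p53R270H/+WAPCre mice, in which Cre under the whey acidic protein promoter activates a mutant p53 allele in mammary epithelium, and which were 8 weeks old at the start. The 5 groups differed in what the mice were given, which was insulin, its analogs glargine or X10, insulin-like growth factor 1 (IGF1), or vehicle alone, by subcutaneous injection on alternate days up to the appearance of a tumor. Each group held 10 tumors of 1 cm3, taken 24 h after the last injection, and each tumor came with its own mouse number, so that tumors are named by group and number, as in X10_95. All mice, the vehicle group included, carried the mutant p53 and Cre. The vehicle tumors are titled untreated in the sample labels. For sequencing, the study had chosen tumors with an EMT-like (epithelial to mesenchymal transition) appearance and a latency close to the median of their treatment, so the 50 tumors do not cover every tumor type of the model.

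Library sizes recovered from the steps of the RPKM values were 26.6 to 51.9 M reads (median 40.9 M). Of the 8 mesenchymal markers, Vim was between 1094 and 6102 RPKM and Col1a1 between 1341 and 23864 RPKM, while Pdgfrb was between 12.1 and 77.3 RPKM and Acta2 between 6.63 and 656 RPKM. The epithelial marker Epcam was between 0.529 and 302 RPKM, with a median of 4.75 RPKM, and the milk protein gene Wap was listed at 0 in 17 tumors. In 1 tumor, X10_105, the summed RPKM of the plasma cell markers was 57933, against a median of 788 in the X10 group. In bulk tumor RNA, fewer cells of a type and less RNA per cell cannot be told apart.

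When unfolded proteins accumulate in the endoplasmic reticulum (ER), the sensors IRE1, PERK and ATF6 are released from the chaperone BiP. IRE1 splices the Xbp1 transcript into the form that encodes an active factor, ATF6 is cleaved into another, and together they switch on ER chaperones and degradation factors. PERK phosphorylates eIF2alpha, as do GCN2 in amino acid shortage, PKR and HRI, and this slows general translation while Atf4 is translated more. ATF4 then drives amino acid synthesis and transport genes and, with CHOP, the product of Ddit3, genes such as Trib3 and Chac1. Atf4 protein and Xbp1 splicing are not measured by RPKM per gene, so the values below are total transcript levels of these genes.

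Atf4, Ddit3, Trib3, Asns and Chac1 are treated below as the ATF4 arm. Atf4 (ENSMUSG00000042406), the transcription factor of the integrated stress response, lies on GRCm38 at chr15:80255184-80257541, plus strand. Ddit3 (ENSMUSG00000025408), which encodes the CHOP factor, lies at chr10:127290774-127296288, plus strand. Trib3 (ENSMUSG00000032715), a pseudokinase that restrains ATF4 and AKT, lies at chr2:152337422-152344032, minus strand. Asns (ENSMUSG00000029752), asparagine synthetase, lies at chr6:7675169-7693254, minus strand. Chac1 (ENSMUSG00000027313), an enzyme that breaks down glutathione, lies at chr2:119351229-119354381, plus strand.

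Xbp1, Hspa5, Hsp90b1, Dnajb9 and Herpud1 are treated as the ER arm. Xbp1 (ENSMUSG00000020484), the factor activated by IRE1, lies at chr11:5520659-5525893, plus strand. Hspa5 (ENSMUSG00000026864), which encodes BiP, lies at chr2:34771970-34777547, plus strand. Hsp90b1 (ENSMUSG00000020048), which encodes the chaperone GRP94, lies at chr10:86690209-86705509, minus strand. Dnajb9 (ENSMUSG00000014905), the BiP co-chaperone ERdj4, lies at chr12:44205559-44210326, minus strand. Herpud1 (ENSMUSG00000031770), a scaffold of ER-associated degradation, lies at chr8:94386438-94395377, plus strand. In GENCODE M21, the start of Ddit3 overlaps Gm4189 and its end overlaps Mars, both on the other strand, and a second gene named Ddit3 that is not used here lies inside it. Hsp90b1 overlaps 1810014B01Rik, Gm15344 and Gm25745, Dnajb9 overlaps Mir5627, and Herpud1 overlaps the antisense gene Gm15890. How reads in these overlaps were assigned is uncertain, so the values of these genes may miss or include such reads.

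The promoters of the 10 genes were read from RefSeq (GRCm38.p6, 10 of 10 matched, 250 bases before to 50 after the start) because the genes of each arm are known for shared regulatory letters. The ER stress element, searched on both strands as CCAAT and CCACG with 9 free bases between them, was found in 2 of the 10 promoters, Hspa5 and Hsp90b1, and in 39 of all 32851 promoters (0.119%). Each ER stress element starts with CCAAT and is therefore also a match of the CCAAT box, which was found in 7 of the 10 and in 37.4% of all promoters. The ATF4 composite site, searched as TGATGNAA on both strands, was found in Asns, Chac1, Trib3 and Herpud1, so in 4 of the 10 promoters, and in 3.97% of all. The UPR element TGACGTGG was found in 0 of the 10 and in 0.676% of all. ER stress elements and ATF4 composite sites, but not other CCAAT boxes, are given below in capitals, in the promoters of the genes that hold an ER stress element or an ATF4 composite site, 5' to 3' on the strand of the gene. The stretches are from Hspa5 at chr2:34771984-34772083 (plus strand), Hsp90b1 at chr10:86705523-86705666 (minus strand, with a forward and a reverse element), Asns at chr6:7693210-7693309 (minus strand), Chac1 at chr2:119351003-119351102 (plus strand, reverse match), Herpud1 at chr8:94386271-94386370 (plus strand, reverse match) and Trib3 at chr2:152344028-152344057 (minus strand, reverse match, after the RefSeq start). The RefSeq starts differ from the GENCODE positions given above, by which the Trib3 match lies before the start of the gene and the Asns and Hspa5 matches lie inside it.
Hspa5: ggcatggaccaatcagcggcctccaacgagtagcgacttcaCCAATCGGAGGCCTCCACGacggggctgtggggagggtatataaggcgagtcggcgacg
Hsp90b1: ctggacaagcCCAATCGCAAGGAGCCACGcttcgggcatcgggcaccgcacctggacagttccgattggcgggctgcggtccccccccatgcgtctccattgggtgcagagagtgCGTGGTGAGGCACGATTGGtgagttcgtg
Asns: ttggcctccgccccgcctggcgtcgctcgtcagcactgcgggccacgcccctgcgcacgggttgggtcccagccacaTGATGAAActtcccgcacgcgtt
Chac1: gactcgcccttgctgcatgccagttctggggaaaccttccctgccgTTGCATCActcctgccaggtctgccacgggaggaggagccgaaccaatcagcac
Herpud1: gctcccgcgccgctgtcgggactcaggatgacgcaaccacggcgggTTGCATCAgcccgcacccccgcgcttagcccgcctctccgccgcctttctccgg
Trib3: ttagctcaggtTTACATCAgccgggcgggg
A match is a description of these letters, not of a bound site, and these windows do not reach elements farther away.

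The levels of the 10 genes spanned a wide range. Over the 50 tumors, mean RPKM ± SD was 1395 ± 310 for Hspa5 and 657 ± 117 for Hsp90b1, the most abundant of the 10. It was 171 ± 39.8 for Xbp1, 139 ± 33.1 for Atf4, 118.4 ± 151 for Asns and 106 ± 30.1 for Herpud1, neighbours in the order that did not differ beyond their spread. Ddit3 followed with 32.3 ± 21.7, Trib3 with 19.9 ± 15.1 and Dnajb9 with 14.4 ± 3.88, and Chac1 was lowest with 5.27 ± 3.67. Ddit3 and Trib3, like Trib3 and Dnajb9, were closer to each other than the SD of Trib3, whereas Dnajb9 and Chac1 were farther apart than the SD of either. Without vehicle_182, Asns was at 98.8 ± 58.7. The gene length that the authors divided by was recovered from the RPKM steps and was often shorter than the longest annotated transcript, for example 647 bases for Hspa5 where the longest transcript has 3672. Per kilobase of the longest transcript, the means were 246 for Hspa5, 228 for Hsp90b1, 119 for Atf4, 83.5 for Xbp1, 39.7 for Herpud1, 33.4 for Asns, 29.6 for Ddit3, 10.9 for Dnajb9, 6.27 for Trib3 and 5.27 for Chac1, so that Atf4 then stood above Xbp1 and Dnajb9 above Trib3. The reads behind a value were fewest for Chac1, with 65 to 1626 reads per tumor, and most for Hspa5, with 19906 to 60629.

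The genes differed more in how much they varied than the levels alone show. The SD of log2(RPKM + 0.5) over the 50 tumors was 0.89 for Trib3, 0.80 for Asns, 0.75 for Ddit3 and 0.72 for Chac1, at percentiles 89.5, 86.2, 83.6 and 82.3 of all tested genes. Atf4 itself had an SD of 0.33 (percentile 26.9). In the ER arm the SD was 0.25 for Hsp90b1 (percentile 7.53), 0.31 for Hspa5 (21.6), 0.33 for Xbp1 (26.2), 0.39 for Herpud1 (43.7) and 0.39 for Dnajb9 (44.1). From the lowest to the highest tumor, Asns spanned 24.1-fold, Chac1 23.7-fold, Trib3 16.0-fold and Ddit3 9.21-fold, whereas Hsp90b1 spanned 2.15-fold and Atf4 2.66-fold. Single tumors set some of these spans. Without its highest tumor, Asns spanned 7.61-fold (without vehicle_182), Chac1 15.3-fold (without vehicle_161), Trib3 12.0-fold (without IGF1_158) and Ddit3 8.94-fold (without X10_95). The SD was then 0.62 for Asns (percentile 76.7), 0.65 for Chac1 (79.4), 0.84 for Trib3 (87.9) and 0.70 for Ddit3 (81.2). The 4 genes downstream of Atf4 thus stood among the more variable tested genes and the ER chaperone genes Hspa5 and Hsp90b1 among the more stable ones. These percentiles are over genes of every level. By mean RPKM, Hspa5 and Hsp90b1 were at percentiles 99.8 and 99.4, Asns at 93.3, Ddit3 at 75.3, Trib3 at 65.1 and Chac1 at 35.9. The part of level in the spreads was not tested.

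**Figure D1:**
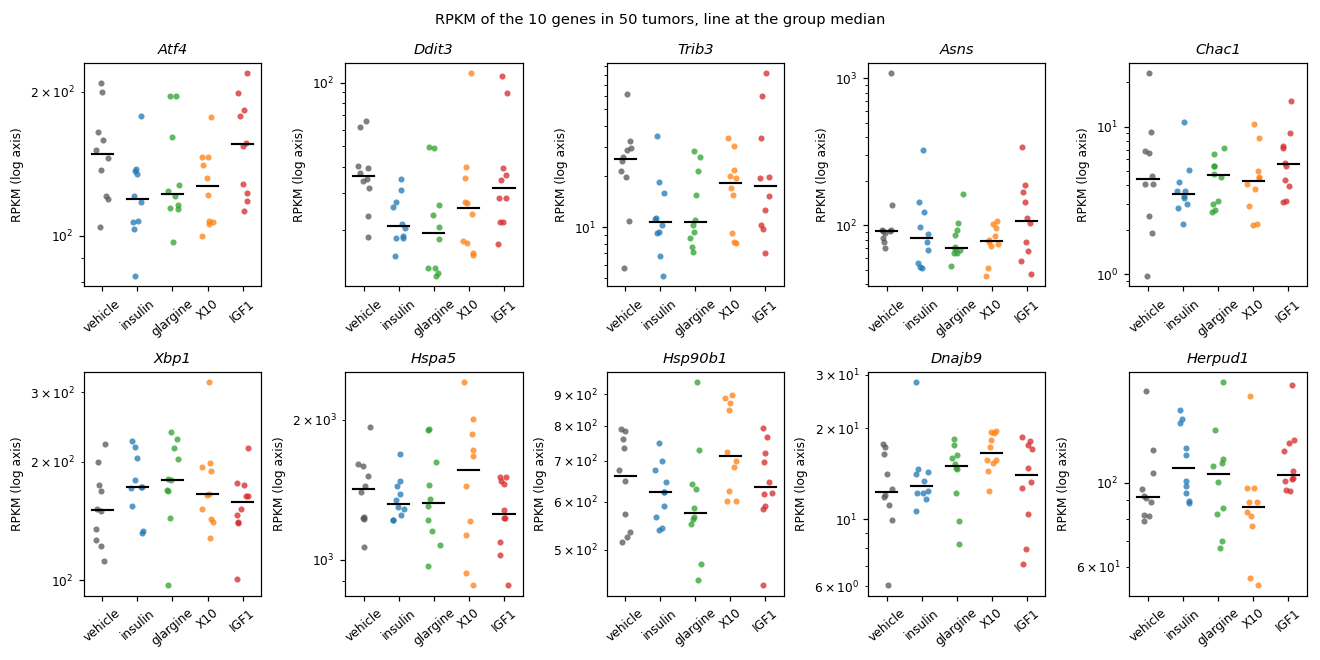
RPKM (log axis) of the 10 genes in each tumor by treatment group, with a line at the group median, 10 tumors per group. Single tumors stand far above the rest for Asns (1083 RPKM in vehicle_182), Chac1 (23.0 RPKM in vehicle_161) and Ddit3 (111.1 RPKM in X10_95), and the groups overlap for every gene.

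Trib3 showed the widest differences between groups. In vehicle tumors, Trib3 was between 5.74 and 61.3 RPKM, with a median of 25.4. In insulin tumors it was between 5.12 and 34.9 RPKM with a median of 10.7, and in glargine tumors between 7.17 and 28.4 RPKM with a median of 10.7. The groups overlapped, yet 9 of 10 insulin, 8 of 10 glargine, 8 of 10 X10 and 7 of 10 IGF1 tumors lay below the vehicle median. In X10 tumors Trib3 was between 8.04 and 33.9 RPKM with a median of 18.4, and in IGF1 tumors between 7.00 and 81.9 RPKM with a median of 17.5. The highest value of all was in IGF1_158 and the next in vehicle_182.

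Ddit3 had a similar order of medians. It was between 18.5 and 66.0 RPKM in vehicle tumors, with a median of 36.1. In insulin tumors it was between 15.1 and 34.8 RPKM with a median of 20.9, and in glargine tumors between 12.1 and 49.4 RPKM with a median of 19.4. The tumors below the vehicle median were 10 of 10 for insulin, 8 of 10 for glargine, 8 of 10 for X10 and 6 of 10 for IGF1. In X10 tumors Ddit3 was between 15.2 and 111.1 RPKM with a median of 25.4, where the next tumor after X10_95 had 40.0 RPKM. In IGF1 tumors it was between 17.2 and 108 RPKM with a median of 31.6.

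Atf4, whose product acts upstream of the other 4, varied less. In vehicle tumors it was between 104 and 208 RPKM, with a median of 148. Its median was 119 RPKM in insulin tumors (82.3 to 178), 122 in glargine tumors (97.3 to 196), 127 in X10 tumors (99.96 to 177) and 155 in IGF1 tumors (112.9 to 219). Vehicle and IGF1 tumors had the higher medians, and 9 of 10 insulin tumors and 9 of 10 X10 tumors lay below the vehicle median.

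Asns had close medians and a long upper tail. In vehicle tumors it was between 70.1 and 1083 RPKM, with a median of 91.0, and the second highest vehicle tumor had 138 RPKM. The median was 82.3 RPKM in insulin tumors (51.3 to 327), 70.1 in glargine tumors (53.3 to 163), 78.7 in X10 tumors (45.0 to 107.4) and 108 in IGF1 tumors (46.5 to 343). The groups overlapped over most of their range, apart from 3 tumors with over 3 times the median of all tumors, which were vehicle_182, IGF1_158 and insulin_13.

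Chac1 was the least abundant of the ATF4 arm. Its RPKM was between 0.971 and 23.0 in vehicle tumors with a median of 4.39. The median was 3.52 in insulin tumors (2.19 to 10.7), 4.68 in glargine tumors (2.63 to 7.18), 4.31 in X10 tumors (2.16 to 10.5) and 5.56 in IGF1 tumors (3.10 to 14.9). The highest and the lowest tumor of all 50, vehicle_161 and vehicle_162, belonged to the same group.

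In the ER arm, Dnajb9 was the gene with the largest difference from vehicle. It was between 6.04 and 17.8 RPKM in vehicle tumors with a median of 12.3, and between 12.4 and 19.6 RPKM in X10 tumors with a median of 16.6. Each of the 10 X10 tumors lay above the vehicle median, the lowest by a small margin (12.38 against 12.28 RPKM), and the ranges overlapped. The median of Dnajb9 was 12.9 RPKM in insulin tumors (10.7 to 28.3), 15.0 in glargine tumors (8.30 to 18.4) and 14.0 in IGF1 tumors (7.11 to 18.7).

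The groups were close to each other for both chaperone genes. Median Hspa5 was 1423 RPKM in vehicle, 1321 in insulin, 1327 in glargine, 1557 in X10 and 1254 in IGF1 tumors, and the X10 group held both the highest tumor (2406 RPKM, X10_116) and the lowest (881 RPKM, X10_105). Median Hsp90b1 was 662 RPKM in vehicle, 622 in insulin, 576 in glargine, 712 in X10 and 634 in IGF1 tumors. No group stood outside the range of another for either gene. Median Xbp1 was 151 RPKM in vehicle, 173 in insulin, 180 in glargine, 165 in X10 and 157.9 in IGF1 tumors, with a single high tumor, X10_105, at 318 RPKM. Median Herpud1 was 91.5 RPKM in vehicle, 109 in insulin, 106 in glargine, 86.1 in X10 and 104.98 in IGF1 tumors. For Herpud1, 10 of the 10 IGF1 tumors lay above the vehicle median, the lowest by a small margin (94.98 against 91.46 RPKM). The tumor vehicle_187 reached 175 RPKM, close to the highest IGF1 tumor at 180.

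The question of the design was whether chronic treatment with each compound changes expression in the tumor, and each treatment was compared with vehicle. Differences below are on the log2(RPKM + 0.5) scale, which understates the change of low genes such as Chac1. They were tested with limma over all 16733 genes and adjusted by the Benjamini-Hochberg method, with all 5 groups in the fit.

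After insulin treatment, 0 of the 10 genes passed an adjusted p-value of 0.05 in limma, where 0.0% of all tested genes did. The difference was -0.92 for Trib3 (95% interval -1.67 to -0.18, unadjusted p = 0.0166, adjusted p = 0.365, limma). It was -0.69 for Ddit3 (-1.30 to -0.07, p = 0.0291, adjusted p = 0.402, limma) and -0.30 for Atf4 (-0.58 to -0.01, p = 0.0400, adjusted p = 0.423, limma). At an unadjusted p under 0.05, 3 of the 10 genes were thus lower than in vehicle, beside 5.17% of all tested genes, and none was higher, beside 5.98%. All 5 ATF4 arm genes had a negative difference, with a median of -0.34 where the median of all tested genes was 0.03. The intervals of Asns (-0.34, interval -1.04 to 0.35) and Chac1 (-0.26, interval -0.90 to 0.38) included 0. These 5 genes were correlated with each other over the tumors, as given below, so their signs are not separate observations. In the ER arm the differences were between -0.05 for Hspa5 and 0.20 for Herpud1, and each interval included 0. The summed RPKM of leukocyte markers had a median of 1731 in insulin tumors (692 to 2995) and of 1183 in vehicle tumors (652 to 2330). The list has 8 genes, all detected in every tumor. In a fit with epithelial, leukocyte, muscle and adipocyte scores as covariates, the difference was -0.72 for Trib3 (p = 0.0618, limma), -0.66 for Ddit3 (p = 0.0502, limma) and -0.20 for Atf4 (p = 0.157, limma), and Xbp1 then had an unadjusted p under 0.05, with a difference of 0.29 (p = 0.0453, adjusted p = 0.724, limma) compared with 0.19 without the scores. Leaving out 1 tumor at a time, Trib3 stayed at an unadjusted p of at most 0.0460. The p of Ddit3 was above 0.05 in 3 of the 50 fits, without vehicle_161 (highest, p = 0.0633, limma), vehicle_174 or insulin_21, and that of Atf4 in 10 of the 50, at most 0.1001 without insulin_15. The p of Atf4 was also above 0.05 with quantile normalization (0.0651), upper quartile scaling (0.0559) and library size as a covariate (0.0519, all limma).

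After glargine treatment, 0 of the 10 genes passed, beside 0.0% of all tested genes. Ddit3 had a difference of -0.79 (interval -1.40 to -0.17, p = 0.0129, adjusted p = 0.789, limma). Trib3 had one of -0.76 (interval -1.51 to -0.02, p = 0.0449, adjusted p = 0.789, limma). These 2 of the 10 genes were lower at an unadjusted p under 0.05, beside 2.92% of all tested genes. All 5 ATF4 arm genes again had a negative difference, with a median of -0.53 where the median of all tested genes was 0.02. The intervals of Asns (-0.53), Atf4 (-0.15) and Chac1 (-0.11) included 0. The signs of the 5 correlated genes are again not separate observations. The insulin and glargine comparisons share the 10 vehicle tumors, so their likeness is not independent. The 7 adipocyte markers summed to a median of 190 RPKM in glargine tumors (21.1 to 528) and of 53.2 RPKM in vehicle tumors (18.9 to 252), and 2 of the 7, Plin1 and Retn, were listed at 0 in some tumors. The 7 milk secretory markers summed to a median of 149 RPKM in glargine tumors (1.03 to 956) and of 9.41 RPKM in vehicle tumors (0.504 to 323), with Csn2, Csn1s2a and Wap listed at 0 in some tumors. The fit with marker scores holds no milk secretory score, and the part of these markers in the differences was not tested. In that fit the difference was -0.41 for Trib3 (p = 0.260, limma) and -0.61 for Ddit3 (p = 0.0602, limma). Leaving out 1 tumor, the p of Trib3 was above 0.05 in 13 of 50 fits, at most 0.110 without vehicle_182, and that of Ddit3 was at most 0.0305. With upper quartile scaling the p of Trib3 was 0.0523 (limma). Under 2 alternatives a further gene had an unadjusted p under 0.05. They were Asns with library size as a covariate (-0.73, p = 0.0446, limma) and Xbp1 without glargine_73 (0.31, p = 0.0291, limma).

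After X10 treatment, 0 of the 10 genes passed, beside 0.0657% of all tested genes. Dnajb9 was the only one of the 10 at an unadjusted p under 0.05, with a difference of 0.40 (interval 0.06 to 0.75, p = 0.0223, adjusted p = 0.379, limma), beside 2.75% of all tested genes that were higher. Without vehicle_174, the tumor with the lowest Dnajb9, the difference was 0.29 (p = 0.0776, limma), and in the fit with marker scores it was 0.34 (p = 0.0502, limma). The differences of the ATF4 arm were negative in 5 of 5 genes and lay between -0.59 for Asns and -0.11 for Chac1, with a median of -0.42 where the median of all tested genes was -0.03. This comparison again shares the 10 vehicle tumors with those of insulin and glargine, and the correlated genes of the ATF4 arm do not give separate signs. For Asns the interval was -1.29 to 0.10. Hsp90b1 had a difference of 0.19 (interval -0.04 to 0.41). Under 4 alternatives a further gene had an unadjusted p under 0.05. They were Ddit3 without X10_95 (-0.65, p = 0.0264, limma), Herpud1 without X10_105 (-0.32, p = 0.0463, limma), Asns with library size as a covariate (-0.87, p = 0.0222, limma) and Hsp90b1 with upper quartile scaling (0.25, p = 0.0282, limma).

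After IGF1 treatment, 0 of the 10 genes passed, beside 0.00598% of all tested genes, and none of the 10 had an unadjusted p under 0.05, beside 8.84% of all. The differences were between -0.17 for Hspa5 and 0.27 for Chac1. The interval was widest for Trib3, at -0.91 to 0.58 around -0.17. It was narrowest for Hsp90b1, at -0.24 to 0.21.

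The study set X10 and IGF1, which bind the IGF1 receptor strongly, against the other treatments, and the same was done here with 20 tumors against 30. Of the 10 genes 0 passed, beside 0.155% of all tested genes, and none had an unadjusted p under 0.05, beside 10.5% of all. Hsp90b1 came closest with a difference of 0.14 (interval -0.01 to 0.29, p = 0.0600, adjusted p = 0.504, limma). Its p was 0.0360 in the fit with marker scores (limma), 0.0315 with upper quartile scaling (limma), and between 0.0190 and 0.0478 in 10 of the 50 fits without 1 tumor. In a test over all 5 groups at once, 0 of 10 genes passed, beside 0.102% of all tested genes, and Ddit3 alone had an unadjusted p under 0.05 (p = 0.0340, adjusted p = 0.349, limma), beside 13.1% of all. That of Ddit3 was above 0.05 with marker scores (p = 0.0991, limma), with library size as a covariate (p = 0.0587, limma) and in 8 of the 50 fits without 1 tumor (at most 0.0577). They were those without glargine_64, glargine_67, glargine_69, glargine_73, IGF1_158, IGF1_160, vehicle_161 or vehicle_174. Herpud1 had a p of 0.0475 with marker scores (limma) and Hsp90b1 one of 0.0309 with upper quartile scaling (limma). Leaving out 1 tumor, Atf4 had a p under 0.05 in 4 of the 50 fits, Trib3 in 3, Herpud1 in 3 (lowest p = 0.0101 without X10_105, limma) and Hsp90b1 in 1.

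The other genes of the pathway were compared in the same fit, from lists of stress sensors and kinases (10 tested of 10), other ER chaperones and folding enzymes (16 of 16), ER degradation and export factors (12 of 12) and other ATF4 and CHOP genes (31 of 32). None of these genes passed the adjusted threshold in any of the 6 comparisons. The most abundant gene of each list was Eif2ak2, the kinase PKR (mean 74.2 RPKM), P4hb, a disulfide isomerase (1388 RPKM), Sec61b, a subunit of the ER channel (297 RPKM) and Aars, a tRNA synthetase (292 RPKM). At an unadjusted p under 0.05, insulin tumors had higher values in 3 of 10 sensors and kinases (Eif2ak1, Eif2ak4 and Mbtps1), 1 of 12 degradation and export factors (Sec24d), 1 of 16 chaperones and 1 of 31 ATF4 and CHOP genes (the serine synthesis gene Phgdh), beside 5.98% of all tested genes. They had lower values in 2 of 16 chaperones, beside 5.17%, and these 3 chaperone genes were Ero1lb, P4hb and Pdia4. In glargine tumors 1 of 16 chaperones (P4hb) was lower, beside 2.92%. No gene of the lists was higher, but the share of all tested genes that were higher is not given here, so whether this is few cannot be told. In X10 tumors 1 of 10 sensors and kinases (Eif2ak4) and 1 of 16 chaperones were higher, beside 2.75%. Lower in X10 tumors were 1 of 16 chaperones (the 2 chaperone genes were Dnajb11 and Pdia3), 1 of 12 degradation and export factors (Syvn1) and 2 of 31 ATF4 and CHOP genes (Aars and Slc3a2), beside 8.25%. In IGF1 tumors 3 of 31 ATF4 and CHOP genes were higher (Cebpg, Phgdh and Sars), beside 4.49%, and 1 of 16 chaperones (Pdia4) was lower, beside 4.34%. The median difference of the 31 other ATF4 and CHOP genes was 0.01 after insulin, -0.13 after glargine, -0.12 after X10 and 0.19 after IGF1, beside medians of all tested genes of 0.03, 0.02, -0.03 and 0.02. The difference was positive in 16 of the 31 genes and negative in 15 after insulin, 6 and 25 after glargine, 8 and 23 after X10, and 24 and 7 after IGF1. How far the 31 genes vary together was not tested, so these signs cannot be taken as separate observations.

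No difference between treatment groups passed the adjusted threshold for these genes, but most genes of the ATF4 arm moved together from tumor to tumor. For each of the 45 pairs of genes, Pearson r of log2(RPKM + 0.5) was computed over the 50 tumors. Within the ATF4 arm, r was positive in 10 of 10 pairs and at least 0.5 in 6 of 10, with a median of 0.55. In 8 of the 10 pairs the permutation p adjusted over the 45 pairs was under 0.05, and it was 0.0684 for Ddit3 with Asns and 0.0944 for Asns with Chac1. Within the ER arm 0 of 10 pairs reached 0.5 (median 0.18), and across the arms 0 of 25 did (median -0.08). Over all 139988278 pairs of tested genes, 2.86% reached an r of 0.5 and the median was 0.02.

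Trib3 had the highest values of r. They were 0.65 with Ddit3 and 0.64 with Atf4, each with a two-sided permutation p of 1e-05, the smallest that 100000 resamples can give, and an adjusted p of 0.00015 over the 45 pairs. With Asns it was 0.57 (p = 2e-05, adjusted p = 0.00018, permutation test) and with Chac1 0.54 (p = 3e-05, adjusted p = 0.000225, permutation test). The corresponding Spearman rho was 0.61 with Ddit3, 0.65 with Atf4, 0.46 with Asns and 0.53 with Chac1. Of 16550 genes ranked by their r with Trib3, Ddit3 and Atf4 stood behind only Cars, the cysteinyl tRNA synthetase gene (r = 0.65), while Trib3 ranked 28 among the genes like Atf4 and 51 among those like Ddit3. Centring the values within treatment groups, which removes the group differences, left the r of Trib3 at 0.58 with Ddit3, 0.61 with Atf4, 0.55 with Asns and 0.53 with Chac1.

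Atf4 was further correlated with Ddit3 at 0.60 and with Chac1 at 0.59. The r of Asns depended on single tumors. It was 0.46 with Atf4 (Spearman rho 0.61), 0.33 with Ddit3 (rho 0.24) and 0.31 with Chac1 (rho 0.36). Without vehicle_182 it was 0.57 with Atf4 and 0.53 with Chac1, and without IGF1_158 it was 0.42 with Atf4, 0.23 with Ddit3 and 0.22 with Chac1. The r of 0.57 with Trib3 was 0.40 without the 2 tumors farthest from the median. The r of Trib3 with Chac1 was 0.48 without IGF1_158.

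**Figure D2:**
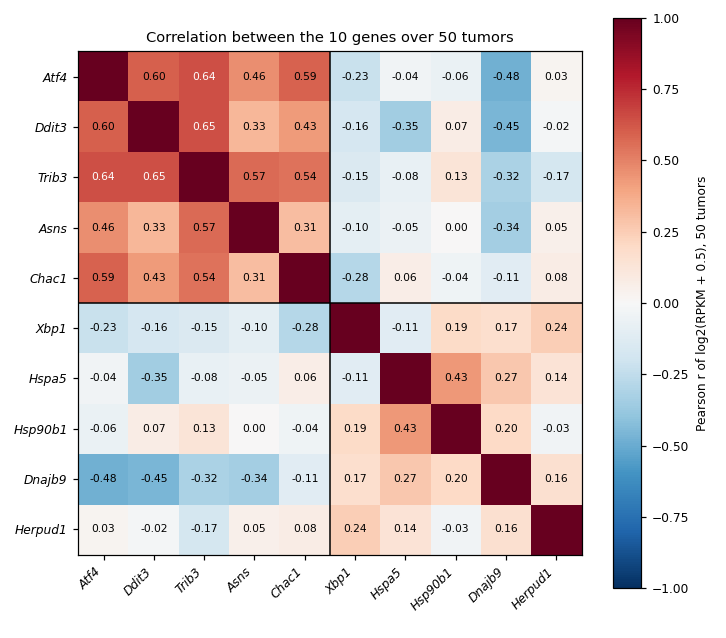
Pearson r of log2(RPKM + 0.5) over 50 tumors for each pair of the 10 genes, with lines that divide the ATF4 arm (top left) from the ER arm (bottom right). The ATF4 arm forms a block of positive values from 0.31 to 0.65, while the ER arm holds one pair above 0.4, Hspa5 with Hsp90b1 at 0.43.

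The ER arm did not form such a block. Hspa5 and Hsp90b1, which share the ER stress element shown above, were correlated at 0.43 (permutation p = 0.00162, adjusted p = 0.00729 over 45 pairs), with a Spearman rho of 0.31 (adjusted p = 0.0888 by permutation). Xbp1 had no r above 0.24 with another of the 10 genes. By Pearson r, Dnajb9 was negatively correlated with 2 genes of the ATF4 arm, at -0.48 with Atf4 (permutation p = 0.0003, adjusted p = 0.00193) and -0.45 with Ddit3 (permutation p = 0.00105, adjusted p = 0.00525). With the other 3 it was -0.34 for Asns (adjusted p = 0.0634 by permutation, but a Spearman rho of -0.45 with an adjusted p of 0.00665), -0.32 for Trib3 (adjusted p = 0.0706) and -0.11 for Chac1 (adjusted p = 0.622). Hspa5 with Ddit3 was at -0.35 (adjusted p = 0.0482 by permutation, and 0.126 by Spearman rho).

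**Figure D3:**
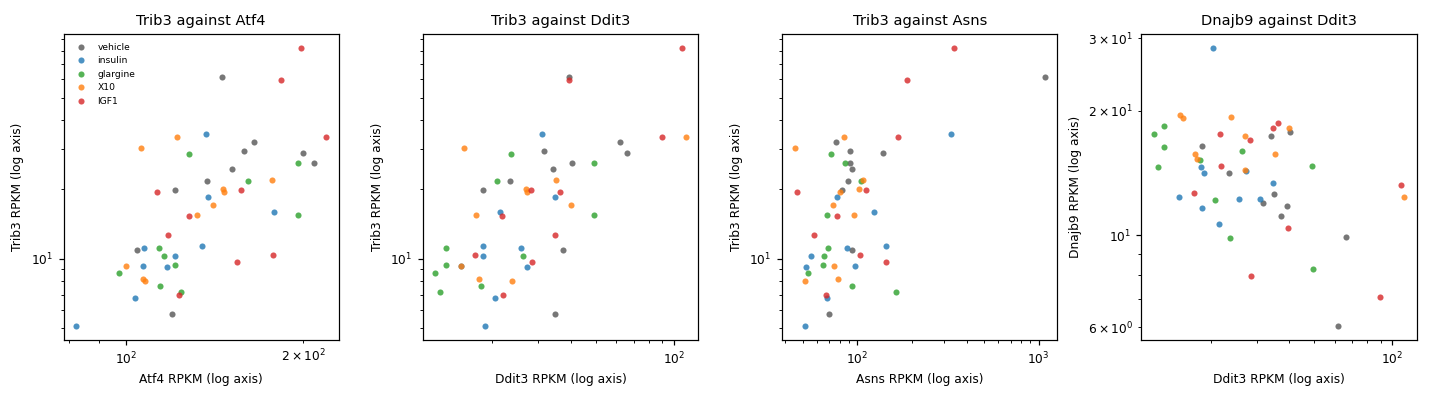
RPKM of Trib3 against Atf4, Ddit3 and Asns, and of Dnajb9 against Ddit3, in 50 tumors coloured by treatment, on log axes. Trib3 is higher where Atf4 (r = 0.64) and Ddit3 (r = 0.65) are higher in all groups together, vehicle_182 lies far to the right for Asns, and Dnajb9 is lower where Ddit3 is higher (r = -0.45).

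High values of several ATF4 arm genes met in few tumors. IGF1_158 was among the 5 highest tumors for each of the 5 genes, with 198 RPKM of Atf4, 108 of Ddit3, 81.9 of Trib3, 343 of Asns and 14.9 of Chac1. The tumor insulin_13 was among the 5 highest for 3 of them, with 34.9 RPKM of Trib3, 327 of Asns and 10.7 of Chac1, but had 136.5 RPKM of Atf4, rank 23 of 50. So were IGF1_160, which had the highest Atf4 and ranked 3 for Ddit3 and 5 for Asns, and vehicle_161, which had the highest Chac1 and ranked 3 for Atf4 and 4 for Ddit3. Of the 50 tumors, 39 were among the 5 highest for none of the 5 genes. In the ER arm no tumor was among the 5 highest for more than 3 of the 5 genes.

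The genes with the most similar pattern over the 50 tumors were compared with the rest of the table, the 10 genes themselves left out. For Trib3 these were Cars, Trim46 (r = 0.62) and Adm2 (0.62), and for Chac1 they were Tenc1 (0.67), Cars (0.63) and Ppp1r15a (0.62), the eIF2alpha phosphatase subunit. For Hspa5 they were Uap1 (0.71), the disulfide isomerase Pdia3 (0.69) and Cacybp (0.67), and for Hsp90b1 they were Arl1 (0.64), Dnaja1 (0.59) and Tceb1 (0.58). For Xbp1 they were Casz1 (0.63), Clca1 (0.63) and Ap1s3 (0.63), and for Herpud1 they were Atoh8 (0.62), Slc46a3 (0.60) and Grap (0.59).

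For the remaining 4 genes, at least 2 of the 3 genes with the most similar pattern lay on the same chromosome. Atf4, on chromosome 15, was most like Csnk1e (0.74), Zfp622 (0.72) and Mfsd5 (0.71), all of chromosome 15. Ddit3, on chromosome 10, was most like Mif (0.82), Bsg (0.78) and Cd63 (0.77), all of chromosome 10, of which Mif lies 51.4 Mb away. Asns, on chromosome 6, was most like Shfm1 (0.68), Mios (0.67) and Ccdc132 (0.62), which lie within 5 Mb of it and had a lower Spearman rho of 0.58, 0.41 and 0.36. Dnajb9, on chromosome 12, was most like Pnpla8 (0.87), which starts 0.0158 Mb away, then Fbxo3 (0.79) of chromosome 2 and Snx13 (0.79) of chromosome 12. Among the 50 genes most like Ddit3, 36 were on its chromosome (72.0%), which holds 4.37% of the tested genes, and among those most like Atf4 27 were (54.0%, beside 3.73%). It was 12 of 50 (24.0%) for each of Asns (beside 5.50%), Dnajb9 (beside 3.597%) and Hspa5 (beside 8.48%). For Hsp90b1 (beside 4.37%) and Herpud1 (beside 4.90%) it was 9 of 50 each (18.0%), and for Xbp1 7 of 50 (14.0%, beside 8.46%). For Trib3 and Chac1, both on chromosome 2, it was 4 of 50 for each (8.00%, beside 8.48%).

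The level of the chromosomal neighbourhood was then set beside each gene, an analysis chosen after these values had been seen. For each gene and tumor it is the median, over the other tested genes that start within 10 Mb, of log2(RPKM + 0.5) relative to each gene's median over tumors. There were 39 such genes around Dnajb9 and 264 around Atf4. It was correlated with Dnajb9 at 0.71 and with Atf4 at 0.66, both with a permutation p of 1e-05, the smallest possible, and an adjusted p of 5e-05 over the 10 genes. With Ddit3 r was 0.57 (permutation p = 4e-05, adjusted p = 0.000133) and with Herpud1 0.51 (permutation p = 0.0001, adjusted p = 0.00025). Spearman rho was 0.64, 0.67, 0.50 and 0.53 for these 4 genes. Without the 2 tumors farthest from the median, r was 0.59 for Dnajb9, 0.66 for Atf4, 0.43 for Ddit3 and 0.40 for Herpud1. For Asns r was 0.33 and for Xbp1 0.32, both with an adjusted p of 0.0480 by permutation. For Trib3 (-0.03), Chac1 (-0.09) and Hspa5 (0.01), the level of the neighbourhood was not related to the gene, and for Hsp90b1 r was 0.17, or 0.37 with a window of 5 Mb.

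**Figure D4:**
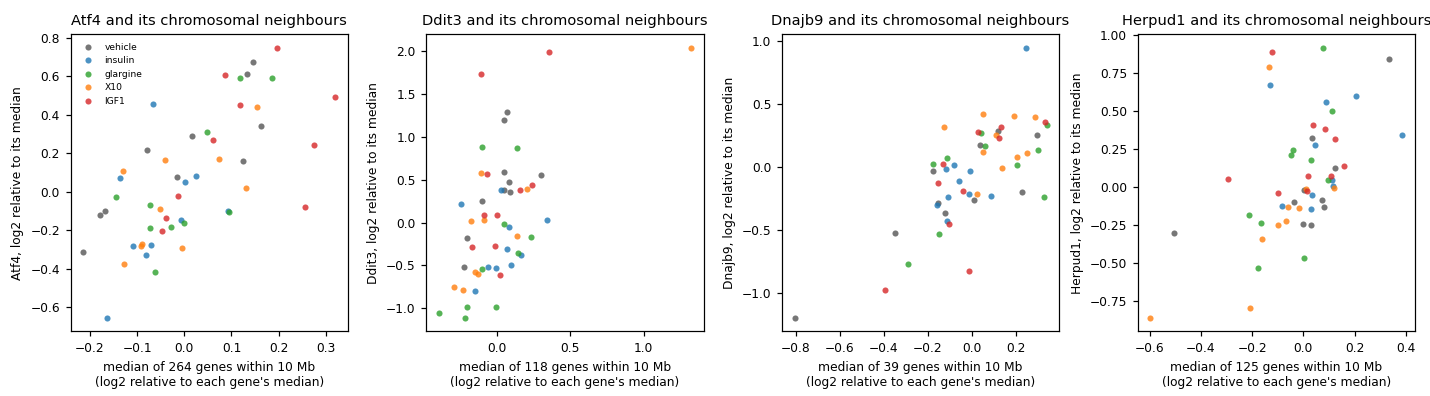
Level of Atf4, Ddit3, Dnajb9 and Herpud1 in each tumor (y, log2 relative to the gene's median) against the median level of the tested genes within 10 Mb (x, log2 relative to each gene's median), 50 tumors coloured by treatment. X10_95 lies at the far right for Ddit3 (1.32) and at the far left for Herpud1 (-0.60), and vehicle_174 at the far left for Dnajb9 (-0.81).

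Of the 20 extremes, the highest and the lowest tumor of each of the 10 genes, 3 were also the extreme of the neighbourhood. In X10_95, which had the highest Ddit3, the neighbours of Ddit3 were at 1.32, the highest of the 50 tumors, and the neighbours of Herpud1 were at -0.60, the lowest, where Herpud1 itself was lowest (53.6 RPKM). In vehicle_174, with the lowest Dnajb9, the neighbours of Dnajb9 were lowest at -0.81. In glargine_73, with the highest Asns of the glargine tumors, the neighbours of Asns were highest at 0.76. In IGF1_158 they were at 0.12 for Asns and at 0.36 for Ddit3.

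With the neighbourhood level removed from each gene, the pairs of the ATF4 arm kept a positive r. It was 0.54 for Atf4 with Trib3, 0.57 for Atf4 with Ddit3, 0.60 for Ddit3 with Trib3, 0.65 for Trib3 with Asns, 0.53 for Trib3 with Chac1 and 0.45 for Atf4 with Chac1. For Dnajb9, r was then -0.20 with Atf4 and -0.19 with Ddit3, compared with -0.48 and -0.45 before. For Hspa5 with Hsp90b1 it was 0.54.

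The tumor with the highest Asns, vehicle_182, was examined along chromosome 6. Asns was at 1083 RPKM, 12.8 times the median of all tumors. Of the 64 other tested genes within 20 Mb of Asns that had a median of at least 0.5 RPKM, 20 were at 3 times their median or more in this tumor (31.3%), beside 2.82% of 15662 genes over the genome. Among them were Samd9l (24.8-fold), C1galt1 (9.87-fold), Shfm1 (6.30-fold), Mios (5.11-fold) and, 11.2 Mb away, Naa38 (50.0-fold). The median of the 64 genes was 1.15-fold, so that genes at a raised and at an ordinary level lay side by side. In IGF1_158 4 of the 64 genes (6.25%) were at 3 times their median or more, beside 3.44% of all, and in insulin_13 3 of the 64 (4.69%), beside 1.87% of all.

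**Figure D5:**
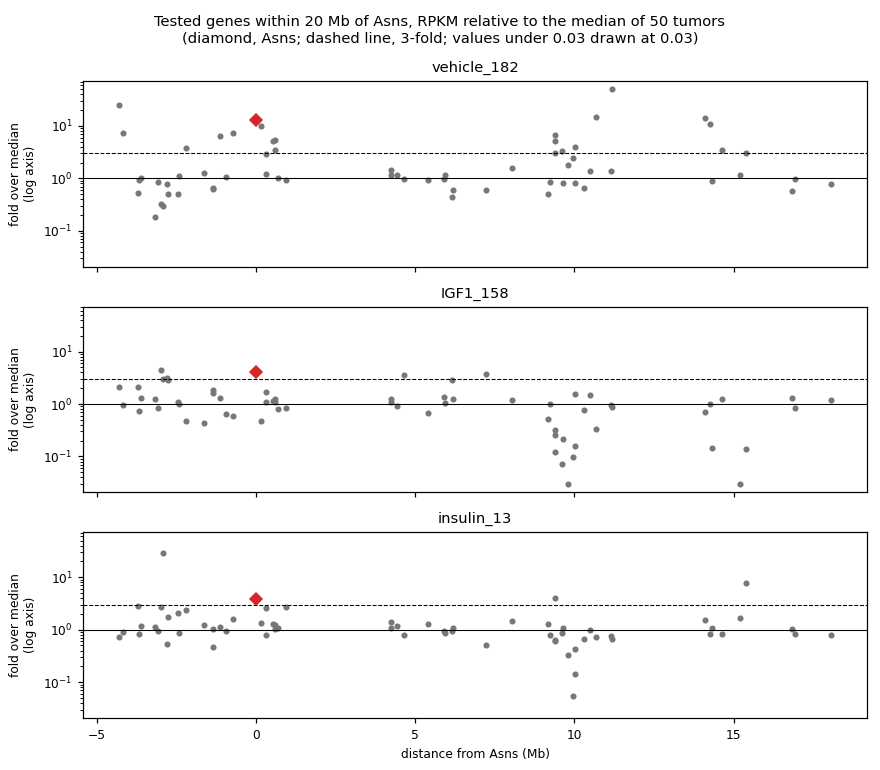
RPKM of the tested genes within 20 Mb of Asns relative to each gene's median over the 50 tumors (y, log axis) against the distance from Asns (x, Mb), in the 3 tumors with Asns above 3 times its median. In vehicle_182, 20 of the 64 neighbours lie above the dashed line at 3-fold, against 4 in IGF1_158 and 3 in insulin_13.

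The other pathway genes differed in which of the 10 genes they followed. Of the 31 other ATF4 and CHOP genes, 10 had an r of at least 0.5 with Atf4, beside 1.75% of all tested genes, with a median r of 0.34 where that of all genes was -0.04. The highest were Ppp1r15a (0.71) and the amino acid transporter subunit Slc3a2 (0.65), followed by Sesn2 (0.60) and the tRNA synthetase Yars (0.59). With Trib3, the median r of the 31 genes was 0.39, with 4 of them at 0.5 or more, among which were Gdf15 (0.61) and Sesn2 (0.59), beside 0.163% of all tested genes. Of the 16 other ER chaperones and folding enzymes, 5 had an r of at least 0.5 with Hspa5, namely Pdia3 (0.69), Calr (0.55), Creld2 (0.55), Hyou1 (0.53) and Dnajc3 (0.53), beside 0.574% of all genes. With Atf4, Ddit3, Trib3, Asns and Chac1, 0 of these 16 reached 0.5, beside 1.75%, 2.19%, 0.163%, 0.0846% and 0.181% of all tested genes. These shares are small, so 0 of 16 is near them. In the ER arm, 1 of the 16 reached 0.5 with Hsp90b1 (beside 0.206%) and 2 did with Dnajb9 (beside 8.03%). With Xbp1 and Herpud1 it was 0 of 16 (beside 0.472% and 0.206%). Of the 10 stress sensors and kinases, 4 reached 0.5 with Dnajb9, the IRE1 gene Ern1 (0.68), Eif2ak4 (0.57), Atf6 (0.55) and Mbtps2 (0.52), but so did 8.03% of all tested genes.

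Markers of other cell types were set beside each gene in 90 relations. Xbp1, which plasma cells need for secretion, was correlated with the plasma cell marker score at 0.48 (permutation p = 0.00054, adjusted p = 0.0486 over the 90), with a Spearman rho of 0.34 (adjusted p = 0.111 by permutation), and without the 2 tumors farthest from the median r was 0.29. Of these tumors, X10_105 had the highest Xbp1 and the highest plasma cell markers. By Spearman rho, Atf4 and Trib3 were lower where leukocyte markers were higher (-0.47 and -0.46, adjusted p = 0.0266 and 0.0276 by permutation), Hsp90b1 was higher with endothelial markers (0.48, adjusted p = 0.0266) and Atf4 was higher with hypoxia genes such as Car9 and Vegfa (0.44, adjusted p = 0.0407). By Pearson r these 4 relations had an adjusted p between 0.0601 and 0.0885. With the epithelial, leukocyte, muscle and adipocyte scores removed, r was 0.59 for Atf4 with Trib3, 0.61 for Ddit3 with Trib3 and 0.49 for Atf4 with Chac1.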

How the data were processed

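TopHat2 2.0.10 and Bowtie2 were used by the authors for alignment to GRCm38 and HTSeq 0.6.1 for counting, and the values they deposited are RPKM, in which counts are divided by gene length and library size. For 96.5% of the 16733 tested genes, all deposited RPKM values are, within their rounding to 3 decimals, whole multiples of 1 step that the 50 tumors share, which gave the gene length. Library sizes were recovered from the gaps between low multiples, of which 95.5% to 100.0% per tumor fell on whole reads. Depth was 26.6 to 51.9 M reads per tumor, and the fewest reads behind a value of the 10 genes were 65, for Chac1. Since RPKM values are not counts, differences in log2(RPKM + 0.5) were tested with an intensity trend in limma 3.58.1 (R 4.3.3), over genes whose mean reached 0.5 RPKM, and the DESeq2 1.2.10 analysis of the authors was not repeated. On simulated data for IGF1 against vehicle with all 16733 genes, 78% of 100 genes changed by a log2 of 1 and 98% of 100 changed by 2 were found, with 6 false calls. The changed genes were picked at random, with normal values independent between genes. The SDs of Trib3, Asns, Ddit3 and Chac1 were at percentiles 82.3 to 89.5 of all tested genes, so these shares need not hold for them. Correlations used two-sided permutation tests with 100000 resamples in Python 3.11.15.

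The 10 genes, the other lists and the tests were chosen with earlier results of these data known. The genes named are the 10 in every comparison, of the other lists the most abundant gene and those past the threshold, and the 3 genes most like each of the 10. Genes named beside these, such as those at an unadjusted p under 0.05, those with an r of at least 0.5 and those near Asns, were chosen after their values were seen. Positions are from GENCODE M21 (GRCm38), which held 16551 of the tested genes, and promoters from RefSeq. Groups follow the sample titles, of which 1 spells IGF1 as IFG1. The alternatives were pseudocounts of 0.1 and 1, other filters, quantile normalization, upper quartile scaling, no trend, only the groups compared, marker scores or library size as covariates, limma voom on recovered reads, and leaving out each tumor. Spreads without the highest tumor of a gene were chosen after seeing the data.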

Additional observations from a re-analysis of the deposited data

Results flagged for a closer look

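In 15 of the 50 combinations of gene and group (30.0%), the highest tumor stood farther from the next one, relative to the range of its group, than Dixon's 95% critical value for 10 samples allows. That value is two-sided. For normally distributed values, chance gives about 1 in 20 for the highest and the lowest tumor together, and less for the highest alone. The lowest tumor stood that far apart in no combination. On the log2(RPKM + 0.5) scale, chosen after seeing the data, 7 of the 15 highest tumors did so, those of Ddit3, Xbp1 and Dnajb9, Herpud1 in X10_105 and IGF1_158, Asns in vehicle_182 and Chac1 in insulin_13, and so did 1 lowest tumor, Hsp90b1 in IGF1_160. In the ATF4 arm, Trib3 was 61.3 RPKM in vehicle_182 (next tumor 32.3) and 34.9 RPKM in insulin_13 (next 18.5). Asns, the gene with the most such tumors, was 1083 RPKM in vehicle_182 (next 138), 327 RPKM in insulin_13 (next 144), 163 RPKM in glargine_73 (next 104) and 343 RPKM in IGF1_158 (next 186.9). Chac1 was 23.0 RPKM in vehicle_161 (next 9.20), 10.7 RPKM in insulin_13 (next 5.13) and 14.9 RPKM in IGF1_158 (next 9.03). Ddit3 was 111.1 RPKM in X10_95 (next 40.0).

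In the ER arm, Herpud1 was 175 RPKM in vehicle_187 (next 122), 169 RPKM in X10_105 (next 96.9) and 180 RPKM in IGF1_158 (next 130). Xbp1 was 318 RPKM in X10_105 (next 199) and Dnajb9 was 28.3 RPKM in insulin_37 (next 14.6). The tumors insulin_13 and IGF1_158 stood apart for 3 genes each, and vehicle_182 and X10_105 for 2 each. Atf4, Hspa5 and Hsp90b1 had no such tumor in any group.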

How the results depend on the processing

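None of the 10 genes passed an adjusted p of 0.05 in any of the 6 comparisons, neither in the 300 values obtained by leaving out 1 tumor (lowest and highest count 0, smallest adjusted p 0.202) nor in the 64 values under the other alternatives (smallest adjusted p 0.327, limma). Of 540 log2 differences under the other alternatives, 530 kept their direction, and the 10 that did not had a size of at most 0.15 as reported. With quantile normalization, insulin minus vehicle was 0.065 for Hspa5 and 0.031 for Hsp90b1, and glargine minus vehicle 0.0074 for Hspa5. With marker scores as covariates, insulin minus vehicle was -0.014 for Dnajb9, glargine minus vehicle 0.069 for Chac1 and -0.087 for Herpud1, IGF1 minus vehicle 0.034 for Asns and -0.089 for Dnajb9, and X10 and IGF1 minus the others 0.029 for Xbp1. With library size as a covariate, X10 minus vehicle was -0.0071 for Hspa5. The cause was not tested. The 6 pairs with an r of at least 0.5 became 5 to 8 on leaving out 1 tumor and 5 to 7 otherwise, where removal of the neighbourhood level, chosen after seeing the data, gave 7. These 7 held 5 of the 6, with Ddit3 and Chac1 and, from the ER arm, Hspa5 and Hsp90b1 in place of Atf4 and Chac1. The neighbourhood r of Hsp90b1 was 0.37 with a window of 5 Mb. No paired analysis was possible because the groups share no mouse numbers. The RPKM values keep the recovered depth but not the counting rules, so reads in overlaps of genes could not be separated.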
